A study of Mus musculus with 10 samples.

Results

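H3K27me3, the trimethylated form of lysine 27 of histone H3, was compared between M2 and M1 macrophages that lack PERK in their myeloid cells. The comparison takes 4 of the series' 10 ChIP-seq libraries, chosen by their labels alone: 2 of PERK-knockout M1 cells and 2 of PERK-knockout M2 cells. All 4 came from bone marrow of C57BL/6 mice carrying floxed Eif2ak3 (the gene of PERK) and LysM-Cre, a Cre recombinase driven from the lysozyme M locus in myeloid cells, so the cells of both states share the deletion. Marrow was grown for 7 days in M-CSF at 20 ng/ml. The M1 cells then received LPS at 20 ng/ml with interferon-gamma at 50 ng/ml, and the M2 cells IL-4 at 20 ng/ml, each for 24 h. The other 6 libraries are used as references: an unstimulated (M0) knockout library, and M0 (1), M1 (2) and M2 (2) libraries of Eif2ak3 fl/fl cells without Cre, called wild type here. The submitters call the 2 libraries of a stimulated group biological replicates; neither the number of animals behind each nor the share of cells in which Cre had acted is given. The Eif2ak3 gene body held no called region in any library, so this mark gives no check on the deletion. In a bulk library, fewer cells that carry the mark and less mark per cell cannot be told apart.

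H3K27me3 is laid down by Polycomb repressive complex 2, whose catalytic subunit is EZH2 or EZH1, and is removed by the demethylases KDM6A and KDM6B. Broad stretches of it lie over genes that are kept silent. PERK is a kinase of the endoplasmic reticulum that phosphorylates eIF2alpha in the unfolded protein response. In macrophages, LPS with interferon-gamma switches on Nos2, the inducible nitric oxide synthase, whereas IL-4 acts through STAT6 on genes such as Arg1 and Egr2.

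Promoter windows carry the shortest form of the result, and 9 are shown first: 8 that separated the states and, beside the internal Egr2 window, the upstream Egr2 window that did not. Each runs from 250 bases before to 50 bases after an annotated start, in the RefSeq sequence of GRCm38.p6, the assembly of the mm10 build that the deposited files use. A library called a window if the authors' H3K27me3 regions covered 50% of it or more. In the first 7 windows the capitals mark each CG dinucleotide. In the windows of Gbp7, a guanylate-binding GTPase induced by interferon, and Serpina3f, a serine protease inhibitor, they mark matches to 2 interferon motifs: GAS, spelled TTCNNNGAA, and ISRE, spelled GAAANNGAAA.
Egr2 upstream start, + strand, chr10:67535249-67535548: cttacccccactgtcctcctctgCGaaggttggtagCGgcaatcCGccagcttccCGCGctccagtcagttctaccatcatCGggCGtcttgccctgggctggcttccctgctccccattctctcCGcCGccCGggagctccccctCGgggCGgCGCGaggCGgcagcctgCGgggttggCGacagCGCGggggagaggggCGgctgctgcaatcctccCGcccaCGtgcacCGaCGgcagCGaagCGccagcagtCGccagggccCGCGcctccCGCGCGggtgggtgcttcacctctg
Egr2 internal start, + strand, chr10:67537316-67537615: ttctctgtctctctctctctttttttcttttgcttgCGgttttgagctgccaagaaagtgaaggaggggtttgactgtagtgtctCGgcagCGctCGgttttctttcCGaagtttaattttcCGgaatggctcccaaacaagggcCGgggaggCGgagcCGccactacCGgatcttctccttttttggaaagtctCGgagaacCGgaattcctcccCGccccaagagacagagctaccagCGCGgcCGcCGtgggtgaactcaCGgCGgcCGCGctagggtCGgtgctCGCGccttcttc
Ddit4, - strand, chr10:59951721-59952020: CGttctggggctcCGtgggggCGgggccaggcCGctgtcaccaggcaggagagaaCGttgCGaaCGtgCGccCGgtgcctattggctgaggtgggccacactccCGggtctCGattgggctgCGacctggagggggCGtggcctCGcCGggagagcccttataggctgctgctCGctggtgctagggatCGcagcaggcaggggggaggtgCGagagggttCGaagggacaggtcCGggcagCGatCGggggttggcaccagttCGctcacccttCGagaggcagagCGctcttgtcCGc
Fpr3, + strand, chr17:17970208-17970507: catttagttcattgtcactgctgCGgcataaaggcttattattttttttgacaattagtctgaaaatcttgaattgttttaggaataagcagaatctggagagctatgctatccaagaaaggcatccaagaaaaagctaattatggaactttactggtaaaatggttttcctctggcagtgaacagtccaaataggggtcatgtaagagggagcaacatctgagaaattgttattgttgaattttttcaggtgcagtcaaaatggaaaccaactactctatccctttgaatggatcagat
Rad21l, - strand, chr2:151668484-151668783: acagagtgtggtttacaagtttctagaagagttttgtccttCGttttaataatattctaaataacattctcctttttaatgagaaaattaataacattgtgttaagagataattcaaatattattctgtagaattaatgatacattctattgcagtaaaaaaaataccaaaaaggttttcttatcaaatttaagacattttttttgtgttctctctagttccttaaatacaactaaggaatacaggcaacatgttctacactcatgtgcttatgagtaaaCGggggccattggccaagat
Il1rl2, + strand, chr1:40324339-40324638: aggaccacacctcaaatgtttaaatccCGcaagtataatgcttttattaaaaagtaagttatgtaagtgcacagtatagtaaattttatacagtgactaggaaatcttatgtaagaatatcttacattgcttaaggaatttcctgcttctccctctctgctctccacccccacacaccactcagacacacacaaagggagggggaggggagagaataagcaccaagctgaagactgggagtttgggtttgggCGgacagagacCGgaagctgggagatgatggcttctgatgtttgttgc
St6gal1, + strand, chr16:23224490-23224789: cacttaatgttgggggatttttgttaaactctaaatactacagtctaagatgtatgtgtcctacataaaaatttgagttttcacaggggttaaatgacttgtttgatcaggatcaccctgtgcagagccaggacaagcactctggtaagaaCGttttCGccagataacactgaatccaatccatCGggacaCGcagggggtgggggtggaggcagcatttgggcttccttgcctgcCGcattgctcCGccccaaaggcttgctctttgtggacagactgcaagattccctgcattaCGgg
Gbp7, + strand, chr3:142530086-142530385: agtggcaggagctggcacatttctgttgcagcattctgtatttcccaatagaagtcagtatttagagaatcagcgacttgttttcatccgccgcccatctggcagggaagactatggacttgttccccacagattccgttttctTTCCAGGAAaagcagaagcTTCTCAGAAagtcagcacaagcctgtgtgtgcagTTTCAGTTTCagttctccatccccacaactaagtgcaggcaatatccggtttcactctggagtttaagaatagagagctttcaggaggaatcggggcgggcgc
Serpina3f, + strand, chr12:104214294-104214593: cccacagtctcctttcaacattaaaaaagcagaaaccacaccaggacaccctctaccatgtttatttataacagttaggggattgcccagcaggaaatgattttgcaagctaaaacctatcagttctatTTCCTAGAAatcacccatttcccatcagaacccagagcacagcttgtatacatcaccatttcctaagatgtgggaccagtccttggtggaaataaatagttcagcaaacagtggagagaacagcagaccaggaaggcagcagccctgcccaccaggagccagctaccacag

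The upstream Egr2 window was 100% covered in all 10 libraries. The internal Egr2 window was 100% covered in both M0 and all 4 M1 libraries of the series, and 0% covered in all 4 M2 libraries. Egr2, a zinc-finger transcription factor induced by IL-4, therefore kept the mark at its upstream start in every library and lacked it at the internal start in every M2 library. The Ddit4 window was 0% covered in both knockout M1 libraries and 100% covered in both knockout M2 libraries and in knockout M0, but it was 0% in all 4 stimulated wild-type libraries. The Fpr3 window went the other way: 100% and 99.3% in knockout M1, 0% in both knockout M2 libraries and in knockout M0, and 64.7% to 100% in the stimulated wild-type libraries. Fpr3 is a formyl peptide receptor. The Rad21l window, at a gene of a meiotic cohesin subunit, was 100% covered in both knockout M1 libraries and 0% in both knockout M2 libraries. In wild type it was covered (100%) in M1 replicate 2 alone.

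Il1rl2, the receptor subunit for IL-36, and St6gal1, a sialyltransferase, had windows that were 100% covered in all 4 M1 libraries of the series and in both M0 libraries. In M2 the St6gal1 window was at 0% in all 4 libraries, and the Il1rl2 window at 2.00% and 0% in knockout and 0% and 21.7% in wild type. The Gbp7 and Serpina3f windows were at 0% in all 4 M1 libraries and 100% in all 4 M2 libraries. In wild-type M0 both were at 100%, and in the single knockout M0 library Gbp7 was at 100% and Serpina3f at 0%.

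Depth was lower in M2 replicate 2: the knockout libraries held 18.4 and 18.6 megatags in M1 and 18.3 and 14.2 in M2, within the series' range of 12.6 to 20.9. The tag threshold for calling a region was 25 in both M1 libraries and in M2 replicate 1, and 21 in M2 replicate 2. The share of tags inside called regions was 45.4% and 48.5% in M1 and 61.0% and 61.3% in M2, a difference of 14.2 percentage points that was larger than the spread between replicates (M1 47.0% ± 2.21, M2 61.1% ± 0.221, SD, n = 2 each; exact two-sided permutation p = 0.333, the smallest that 2 against 2 can give). Counting error was small, with a 95% Wilson half-width of at most 0.0253 points. The M2 regions were no wider in total: they covered 245 and 213 Mb against 226 and 241 Mb in M1 (exact permutation p = 1). In regions of 20 kb or more, the median tag density was 20.7 and 20.8 tags per kb in M1 and 25.6 and 29.4 in M2. So the M2 libraries held more tags per kb over a like area, and every fold in tags below stands beside that shift. The knockout M0 library stood further along the same axis, with 64.1% of its tags in regions and 37.8 tags per kb, and its estimated fragment length was 372 bp against 178 to 190 bp in the 4 stimulated knockout libraries. Wild-type M2 replicate 1 stood apart with 41.3% of tags in regions and 179 Mb covered. Counts of knockout gene calls met in wild type, and of genes that differed between genotypes, are therefore given with and without it. Single-gene tests between genotypes use all 8 stimulated libraries. Both wild-type replicate 1 libraries also held more regions outside the autosomes than any other library of the series. Of 39658 regions in M1 replicate 1 and 36426 in M2 replicate 1, 32125 and 28658 lay on autosomes. In wild-type replicate 2 it was 33522 of 33801 in M1 and 33039 of 33339 in M2. The reason was not tested, and comparisons with wild type that use the replicate 1 libraries carry this limit. Of 11 macrophage markers, 10 (Spi1, Csf1r, Cebpa, Itgam and others) had no region in any of the 4 libraries, and Mertk reached 1.82% in 1 of them. In the wider list of 31 macrophage genes, C1qa, a complement subunit, was at 66.8% in M2 replicate 2 and 0% in the other 3 (95.5% in M0), and Apoe was at 0% in both M1 libraries and 19.7% and 30.6% in M2. The lymphoid markers Cd3e and Cd8a and the granule gene Mpo were covered in all 4.

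**Figure D1:**
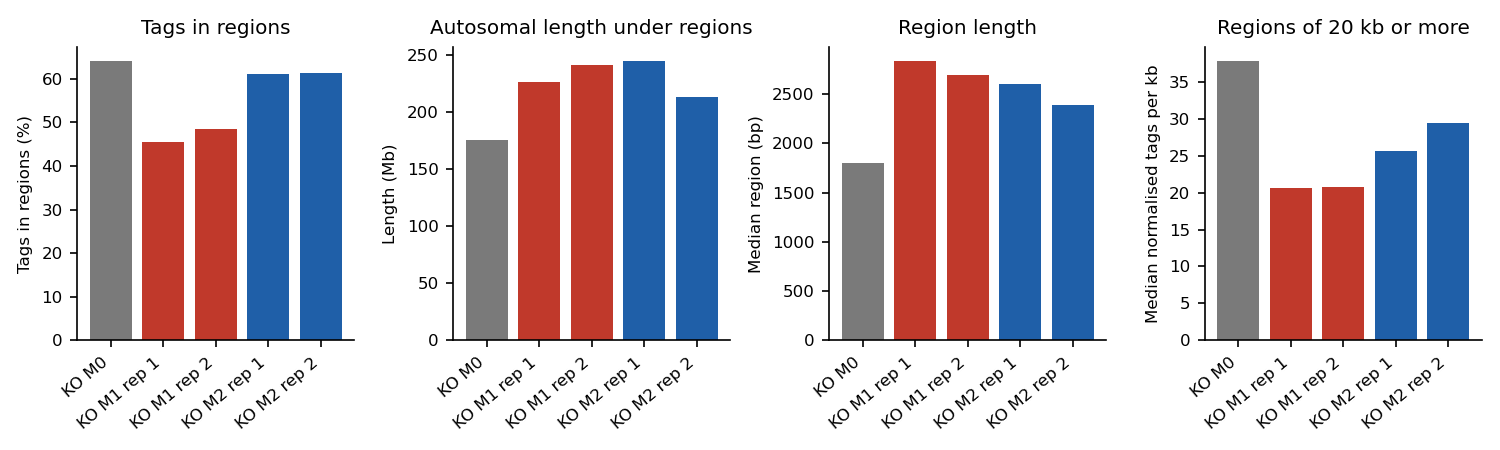
Bars give, for the knockout M0, M1 and M2 libraries (1 bar per library), the percent of tags in called regions, the covered length in Mb, the median region length in bp, and the median tags per kb in regions of 20 kb or more. M2 lies above M1 in tag share (61.0% and 61.3% against 45.4% and 48.5%) and in tag density, while covered length overlaps between the states.

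Across gene bodies, more genes were called in M2 only than in M1 only of the knockout, by a margin that depended on the region list. Covered here means 50% or more of the gene body under regions. Of all 20665 autosomal protein-coding genes, 14.2% and 15.8% were covered in M1 and 16.9% and 16.2% in M2. Of 7975 autosomal protein-coding genes with any cover in the 4 libraries, 231 (2.9%) were covered in both M2 libraries and neither M1 library, and 71 (0.89%) in both M1 libraries and neither M2 library. Many lie near the threshold. The gap between the lowest library of the higher state and the highest of the lower state was 50 points or more in 50 of the 231 and 11 of the 71, and under 10 points in 39 and 13. The M2-only genes were short, with a median length of 15.8 kb against 27 kb for the M1-only genes and 23.6 kb for all genes with cover. No test was made on these counts. Which genes are counted moved with the rule. With the upper 50% of each region list by score, 223 genes were called in M2 only and 182 in M1 only. Of the 231 and the 71, 54 and 17 were called again.

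Nos2 had the longest M2-only stretch of the mark on the autosomes. Its body (chr11:78920787-78960226, 39.4 kb) was covered at 7.74% and 14.0% in M1 and 91.9% and 92.0% in M2. Knockout M0 was at 92.8%, so the M2 libraries had the M0 level and the M1 libraries did not. The tags under regions in the body were 45.5 and 76.3 per 10 megatags in M1, 1376 and 1560 in M2, and 1712 in M0. The log2 difference of M2 minus M1 was 4.41 ± 0.26 (SE; limma, adjusted p = 0.0356, on log2 of tags plus 10), and 3.91 once the libraries were centred on their median (adjusted p = 0.0701). No gene passed after centring, and none without either M1 library, so each limma call given for a gene holds for the deposited scaling with all 4 libraries. Wild type had the same pattern, at 5.73% and 0% in M1 and 82.2% and 92.0% in M2, and the test of the difference between genotypes did not pass (-1.04 ± 0.95, limma, adjusted p = 0.575).

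Socs3, the feedback inhibitor of STAT3 signalling (chr11:117966079-117970336), was covered at 0% in both knockout M1 libraries and at 68.9% and 71.9% in M2. Its level in M0 was 100%. The groups did not overlap, and the log2 difference was 3.12 ± 0.43 (limma, adjusted p = 0.0356). For a gene at 0 in both libraries of a state, as here and for Cd40, Klf4, Ddit4, Fpr3, Morn1, Epyc and Kynu, the fitted difference depends on the 10 tags added before the logarithm and bounds nothing. Its promoter window was at 0% in all 8 stimulated libraries and 100% in both M0 libraries, so the M2 cover lay in the rest of the gene. Of the other SOCS-family genes, Cish, a STAT5 target that restrains cytokine receptors, was at 31.9% and 0% in M1 and 64.2% and 64.8% in M2 (limma, adjusted p = 0.0851). Socs2 was covered in all 4 libraries (76.2% to 86.6%), and Socs1 was at 0% in all 4 and 100% in M0.

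Among the 52 measured genes of the LPS and interferon-gamma list, Nos2 and Socs3 included, the number covered was 3 in each M1 library and 5 in each M2 library. Of its 17 genes with any cover, 2 were called in M2 only and 0 in M1 only, beside 2.9% and 0.89% of all genes with cover. Il1b, the interleukin-1 beta gene, was covered in all 4 (88.1% and 97.0% in M1, 76.0% and 88.9% in M2), as were Il12a, a subunit of interleukin-12, and Ciita, the MHC class II transactivator. Cd40, a costimulatory receptor, was at 0% in both M1 libraries and at 14.3% and 7.81% in M2, with 43.1% in M0; its tags rose by a log2 difference of 3.05 ± 0.24 (limma, adjusted p = 0.0356). Il12b was at 0% in all 4 libraries. Il6 was at 20.2% in M1 replicate 1 and 0% in the other 3. Over this list, 5 of 12 genes tested were higher in M2 and 0 lower, where 23.2% of all genes tested were higher and 2.55% lower. The list's median log2 difference was 0.78 beside 0.58 for all genes.

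Of 24 genes of the IL-4 list with any cover, 2 (Cish and Ch25h) were called in M2 only and 0 in M1 only. Of all genes with cover, 2.9% and 0.89% were so called. Of 41 measured genes, 8 and 7 were covered in M1 and 8 and 10 in M2. Arg1, the arginase of M2 macrophages, was at 0% in all 10 libraries, and Pparg, a lipid-sensing nuclear receptor, was at 0.972% or less in the 4. Irf4, a STAT6 target, was at 21.6% and 22.2% in M1 and 17.1% and 16.1% in M2, while its tags went the other way, at 89.3 and 98.7 against 108 and 127 (log2 difference 0.29, limma, adjusted p = 0.301). Ccl22 and Ccl24, chemokines induced by IL-4, were covered at 89.1% or more in all 4. Ch25h, the cholesterol 25-hydroxylase, was 0% in both M1 libraries and 65.8% and 61.6% in M2, a difference of 63.7 points that was 30.8 with the upper 50% of regions and 14.2 with 5 kb on either side. Klf4, a Krüppel-like factor, was at 18.7% and 23.9% in M1 and 0% in both M2 libraries, and its tags fell by 1.41 ± 0.24 (log2, limma, adjusted p = 0.0369). Over the list, 2 of 22 tested genes were higher in M2 (Ch25h and Fn1) and 1 lower (Klf4), beside 23.2% higher and 2.55% lower over all genes tested, and the median of 0.20 turned to -0.30 after centring.

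Egr2 (chr10:67534469-67542188) differed in the shape of its domain. Its body was covered at 83.4% and 81.9% in M1, 52.6% and 63.8% in M2 and 91.3% in M0. The tags in the body were 182 and 200 in M1 and 101 and 177 in M2, without overlap between the states. The log2 difference was -0.48 ± 0.31 (limma, adjusted p = 0.261), or -0.98 after centring (adjusted p = 0.121), and did not pass. With the upper 50% of regions by score the cover difference was -37.3 points against -24.5 with all regions, and with 5 kb on either side -8.08. A single region ran across the gene in M0 and M1 of both genotypes. In all 4 M2 libraries it was split in 2 around a gap of 2.00 and 1.71 kb in knockout and 2.16 and 2.00 kb in wild type, and in knockout M2 replicate 1 the gap ran from 67536376 to 67538376 on chromosome 10, across the internal window printed above. Of the other early growth response genes, Egr3 and Egr4 were 100% covered in all 4 libraries, and Egr1 was at 0% and 99.5% in M1 and 96.8% and 100% in M2.

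**Figure D2:**
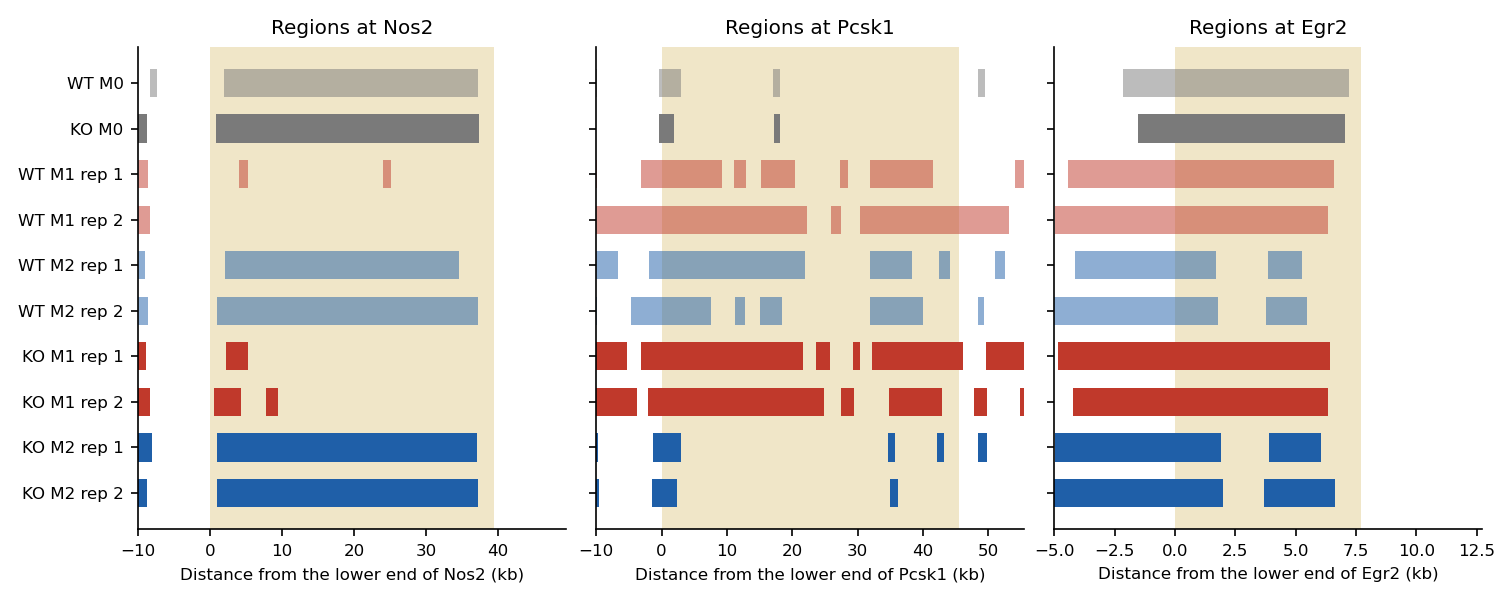
Called regions over Nos2, Pcsk1 and Egr2 in all 10 libraries, as kb from the lower coordinate of the gene; the tan band is the gene body, gray is M0, red M1, blue M2, and pale shades are wild type. Nos2 was filled in M0 and M2, Pcsk1 in M1 of both genotypes and in part in wild-type M2, and the Egr2 region was split in all 4 M2 libraries.

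Of the 12 M2-only genes with the largest gap, 10 were shorter than 3 kb and 5 were at 0% in both M1 libraries; 11 were also covered in knockout M0. Ifnl3 and Ifnl2, the genes of interferon lambda, lie side by side on chromosome 7 and are near-identical, so reads may be shared between them. Ifnl3 was at 0% in both M1 libraries and 100% in both M2 libraries and in M0, and Ifnl2 at 0% and 2.23% against 100% and 99.4%. In the stimulated wild-type libraries Ifnl3 was at 0% in all 4 and Ifnl2 reached 9.78%. Aqp1, a water channel (chr6:55336299-55348555), was at 11.3% and 25.2% in M1 and 100% in both M2 libraries and in M0, a log2 difference of 2.53 ± 0.43 (limma, adjusted p = 0.0369). Hcrt, which encodes the orexin neuropeptides, was at 0% in M1 and 100% and 88.4% in M2. Tex19.2, a germline gene, was at 0% in M1 and 77.1% and 92.4% in M2. Iqcf4, Ly6d, Krtap10-10, Fam243, Actl9 and Rnase13 were at 22.5% or less in both M1 libraries and 75.3% or more in both M2 libraries. With the upper 50% of regions by score the cover difference was 0 for Aqp1, Iqcf4 and Tex19.2, -7.61 points for Fam243, and 37.6 to 50.0 for Hcrt, Krtap10-10, Actl9 and Rnase13; it held at 98.6 or more for Ifnl3, Ifnl2 and Ly6d. With 5 kb on either side the difference of the 10 short genes was 9.51 to 56.4 points.

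The integrated stress response list holds genes of the eIF2alpha branch downstream of PERK and of serine synthesis. Of 31 measured genes, 1 was covered in each M1 library and 2 in each M2 library. Of the 8 with any cover, 1 was called in M2 only and 0 in M1 only, beside 2.9% and 0.89% of all genes with cover. The gene that separated the states was Ddit4 (chr10:59949675-59951770), an mTORC1 inhibitor induced by stress: 0% in both M1 libraries, 81.3% and 66.6% in M2, and 65.2% in M0. Its log2 difference was 1.68 ± 0.24 (limma, adjusted p = 0.0356). All 4 stimulated wild-type libraries were at 0%, yet the difference between genotypes did not pass (1.68 ± 0.35, limma, adjusted p = 0.422). Phgdh, the first enzyme of serine synthesis, was at 6.59% and 7.97% in M1 and 13.9% and 14.6% in M2 (log2 difference 1.35 ± 0.29, limma, adjusted p = 0.0423). Of the 8 genes tested, 2 were higher and 0 lower, a share near that of all genes tested (23.2% and 2.55%). With the upper 50% of regions by score the cover difference of Ddit4 was 33.3 points, and with 5 kb on either side 40.1, against 74.0 for the body with all regions.

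Receptors for chemoattractants and lipid mediators held 3 M2-only and 2 M1-only genes (2.9% and 0.89% of all genes with cover were so called). Of 46 measured receptor genes, 7 and 9 were covered in M1 and 10 and 9 in M2; of 23 tested, 6 were higher in M2 and 0 lower, near the 23.2% and 2.55% of all genes tested, and the median of 0.67 lay near the 0.58 of all genes. Ccr8, a chemokine receptor of T cells and some macrophages, was at 36.0% and 49.1% in M1 and 100% in both M2 libraries (log2 difference 1.33 ± 0.27, limma, adjusted p = 0.041). Ccr4 was at 48.1% and 42.8% against 89.5% and 78.5%, and S1pr3, a sphingosine-1-phosphate receptor, at 42.2% and 40.1% against 62.9% and 61.6%. Both directions turned with the upper 50% of regions by score, to -6.23 and -34.2 points. The Ccr8 difference of 57.4 points became 23.8 with 5 kb on either side. Ackr3, a scavenging chemokine receptor, was at 33.8% and 53.3% in M1 and 100% in both M2 libraries. Ccr10 and Ltb4r1, the leukotriene B4 receptor, were the list genes called in M1 only, by margins of a few points: Ccr10 at 56.4% and 51.1% against 48.6% and 48.8%, Ltb4r1 at 50.8% and 52.2% against 39.5% and 49.7%. With 5 kb on either side both turned, to 18.3 and 17.7 points in favour of M2. Neither passed in tags, and those of Ccr10 went the other way, at 32.6 and 37.9 in M1 and 43.5 and 55.6 in M2 (log2 differences 0.39 and -0.22, limma, adjusted p = 0.265 and 0.503). Among the 36 chemokine ligands, 8 were covered in each M1 library and 9 in each M2 library, and Cx3cl1, fractalkine, was the state-specific call at 49.4% and 43.0% against 60.3% and 60.0%, a difference that turned to -6.32 points with the upper 50% of regions.

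**Figure D3:**
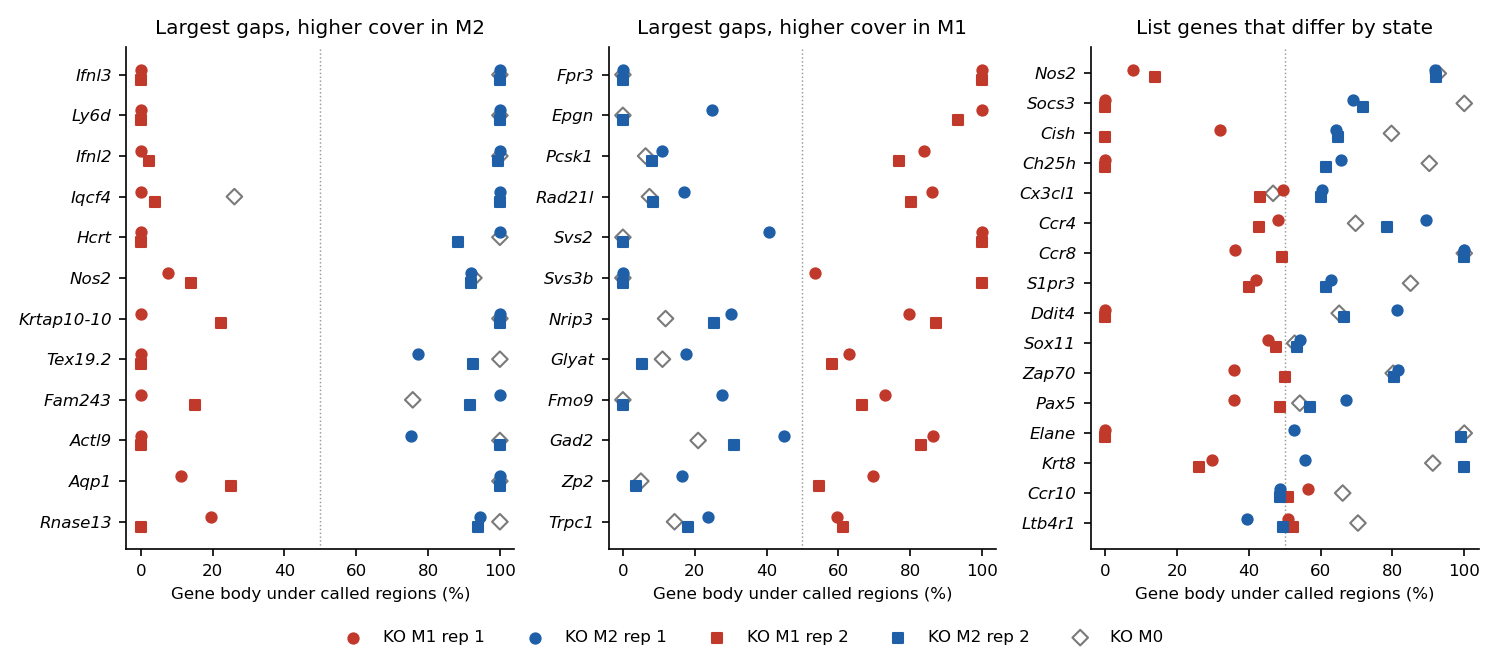
Gene-body cover in percent for the named genes in knockout M1 (2 points), knockout M2 (2 points) and knockout M0 (diamond); the dotted line is the 50% threshold. The M0 diamond lies above the line for 11 of the 12 genes with the largest M2 gaps, for 13 of the 14 M2-only list genes and for both M1-only list genes (Ccr10 and Ltb4r1), and below it for all 12 genes with the largest M1 gaps.

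Some marker genes of other lineages carried the mark in both states, and a few passed 50% in M2 only. Of 28 lymphoid markers, 11 and 14 were covered in M1 and 14 in each M2 library. Of the 24 with any cover, 2 were called in M2 only and 0 in M1 only, beside 2.9% and 0.89% of all genes with cover. In tags 6 of 23 tested were higher and 0 lower, near the 23.2% and 2.55% of all genes tested. The M2-only calls were Pax5, the B-cell factor, and Zap70, a T-cell receptor kinase, with Pax5 at 35.8% and 48.6% against 67.1% and 57.0%. Other members were lower in M2, among them Gata3, a T-cell factor, at 78.3% and 78.7% against 71.1% and 65.8%, and the list's median log2 difference of 0.39 turned to -0.12 after centring. Elane, the neutrophil elastase, was at 0% in both M1 libraries and 52.5% and 99.1% in M2, and Krt8, an epithelial keratin, at 29.7% and 26.2% against 55.6% and 100%. With the upper 50% of regions these 2 differences became 0 and 14.7 points. The Hox clusters and developmental transcription factors, long-standing Polycomb targets, were covered alike: 37 and 38 of 39 Hox genes in M1 and 38 in each M2 library, and 51 to 52 of 61 developmental factors in every library. Their tags had a median log2 difference of 0.58 and 0.63 (0.08 and 0.13 after centring), with 10 of 38 and 21 of 61 genes past the threshold and 0 lower, where 23.2% of all genes tested were higher and the median was 0.58. None of 19 housekeeping genes was covered in any of the 4. Among 23 measured genes of the H3K27 methylation machinery, 2 were covered in each library. Of the 10 tested, 3 were higher in M2 and 0 lower, beside 23.2% and 2.55% of all genes tested. These were Cbx6, a reader of the mark, Pcgf2, a Polycomb RING-finger subunit, and Jarid2, a cofactor of PRC2 (log2 differences 1.80 ± 0.24, 1.73 ± 0.23 and 1.43 ± 0.31, limma, adjusted p = 0.0356, 0.0356 and 0.0434). Cbx6 and Pcgf2 were at 0% in both M1 libraries, so their fitted differences depend on the 10 added tags. Jarid2 was at 0.524% in both M1 libraries and 0.655% and 0.524% in M2.

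Pcsk1, a prohormone convertase of endocrine cells (chr13:75089420-75134861, 45.4 kb), held the longest M1-only stretch. It was covered at 83.7% and 76.8% in M1, 11.0% and 8.10% in M2 and 6.32% in M0. Its tags were 710 and 592 in M1 and 128 and 89.7 in M2, and fell by 2.49 ± 0.23 (log2, limma, adjusted p = 0.0356). Its promoter window was 100% covered in all 10 libraries, so the states differed over the body. With the upper 50% of regions the cover difference was -42.1 points against -70.7 with all regions. Wild type had 59.7% and 85.8% in M1 and 66.1% and 45.3% in M2, and the difference between genotypes did not pass (-2.07 ± 0.47, limma, adjusted p = 0.481).

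Rad21l was at 86.2% and 80.2% in M1 and 17.0% and 8.28% in M2, and its tags fell by 2.50 ± 0.22 (log2, limma, adjusted p = 0.0356). Fpr3 (chr17:17970458-17971677) was at 100% in both M1 libraries and 0% in both M2 libraries, with 18.1 and 16.5 tags against 0. Nrip3, at 79.6% and 87.1% against 30.2% and 25.5%, fell by 1.27 ± 0.14 (limma, adjusted p = 0.0356). Trpc1, a cation channel, was at 59.6% and 61.4% against 23.6% and 18.1%, and Gad2, the glutamate decarboxylase of GABA neurons, at 86.3% and 83.1% against 44.9% and 30.9%. Epgn, an EGF-family ligand, was at 100% and 93.3% against 24.9% and 0%, and its tags did not pass (limma, adjusted p = 0.0534). Svs2 and Svs3b, seminal vesicle proteins, Glyat, Fmo9 and Zp2, an egg-coat protein, completed the 12; Svs3b was at 53.4% and 100% in M1 and 0% in M2. With the upper 50% of regions the cover differences of Svs3b, Gad2 and Trpc1 were -26.7, -29.1 and -12.3 points, against -76.7, -46.8 and -39.6 with all regions. None of these 12 genes was covered in knockout M0, while 9 and 12 were covered in the wild-type M1 libraries and 7 and 10 in wild-type M2.

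The unstimulated knockout library covered more of the M2-only genes, and fewer of the M1-only genes, than of all genes with cover. Knockout M0 covered 179 of the 231 M2-only genes (77.5%) and 3 of the 71 M1-only genes (4.23%), against 39.1% of all genes with cover. For 1 kb bins the shares were 61.7% and 2.99%, against 51.1% of bins called in any of the 4. For promoters they were 88.3% and 30.2%. Knockout M0 called 97.8% of the promoters called in all 4 libraries, 2.79% of those called in none and 27.7% of all promoters. The last share includes promoters without a call in the 4, so it is not a like reference, and a share over promoters called in any of the 4 was not computed. Region overlap showed the same order: the Jaccard index of knockout M0 was 0.591 and 0.660 with the M2 libraries and 0.471 and 0.512 with the M1 libraries. There is 1 M0 library per genotype, its fragment length and tag share differ as given above, and the part of these in the overlap was not tested.

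**Figure D4:**
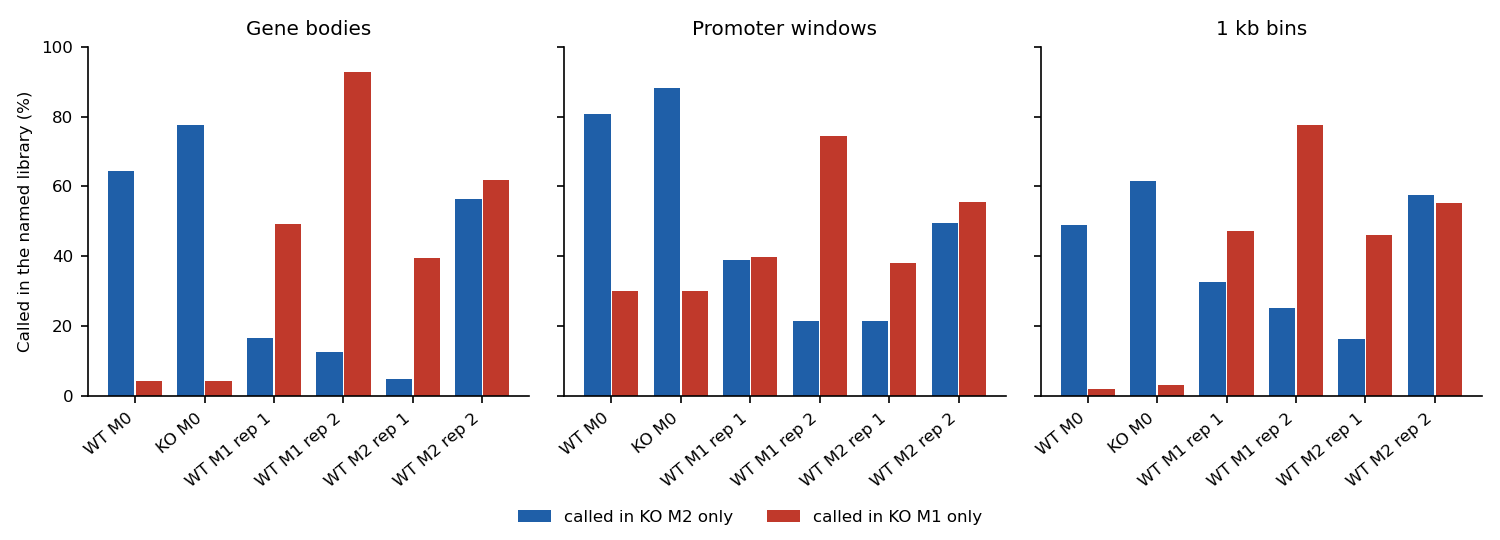
Bars give the percent of knockout M2-only and M1-only genes, promoters and 1 kb bins that were also called in each other library (M0 of both genotypes, wild-type M1 and M2). Knockout M0 holds 77.5% of M2-only genes and 4.23% of M1-only genes; in wild type the 2 M2 libraries differ from each other.

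In wild type the same rule called 10 of 7598 genes in M2 only (0.132%) and 42 in M1 only (0.553%). Of the 231 knockout M2-only genes 2 were called so in wild type (0.866%), and of the 71 M1-only genes 6 (8.45%). Without wild-type M2 replicate 1, 88 of the 231 (38.1%) and 10 of the 71 (14.1%) were called the same way, and 1 and 0 the opposite way. With 1 M2 library the rule is looser, so higher counts follow in part from its construction. The share of all genes called under that rule was not computed. In the replicate 2 libraries alone, wild-type cover was higher in M2 for 191 of the 231 and lower for 19, and for the 71 it was higher for 8 and lower for 58, beside 3644 higher and 2266 lower over all genes with cover. Genes that met the rule in both genotypes were Nos2 and Socs3 in M2, and Ltb4r1, Apol7c, Rab30, Tmprss4, Gm12169 and Olfr985 in M1. The test of the state difference between genotypes called 0 of 7374 genes (0.0%) in either direction (limma, smallest adjusted p = 0.309; 472 and 66 genes at an unadjusted p under 0.05), so nothing here is shown to be particular to the knockout. That count stayed at 0 without wild-type M2 replicate 1, and became 77 and 45 larger and 1 and 0 smaller without knockout M2 replicate 1 or 2.

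Genes with a promoter called in 1 state had lower promoter CG numbers than genes with a promoter called in all 4 libraries. Of 4748 genes with a promoter window called in any of the 4 libraries, 188 (3.96%) were called in both M2 and neither M1 library and 63 (1.33%) the reverse. The CG number of a gene was the highest among its windows of 300 bases, which need not be the window that was called. Its median was 8 for the genes with M2-only promoters and 4 for those with M1-only promoters. It was 17 for the 3512 genes called in all 4 libraries and 15 for all 16457. By CG number, the M2-only share was 1.17% of genes with 0 to 4, 2.50% with 5 to 9, 1.47% with 10 to 19 and 0.528% with 20 or more. For M1-only promoters it was 0.757%, 0.481%, 0.236% and 0.181%. Of 177 M2-only gene bodies with a window, 26 were also M2-only at the promoter, beside 188 of all 16457 genes; of 58 M1-only ones 10 were, beside 63 of 16457.

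Motif letters were counted in the same windows on both strands, and a gene counted if any of its windows held a match. GAS (TTCNNNGAA) was in 11 of 188 M2-only promoters (5.85%) and 6 of 63 M1-only promoters (9.52%). It was in 8.24% of promoters called in any of the 4 libraries and 9.05% of all promoters. In the same order, the STAT6 form with 4 spacer bases (TTCNNNNGAA) was in 15 (7.98%), 10 (15.9%), 7.08% and 7.43%. ISRE (GAAANNGAAA) was in 4 (2.13%), 3 (4.76%), 3.12% and 3.98%. No test was made on these shares. The promoters called in M2 only across all 8 stimulated libraries were those of Gbp7, Serpina3f, Tle6, Syt10, Slc44a1 and Tas1r2; 2 of these 6 hold a GAS match, and the Gbp7 window holds 2 GAS matches and 1 ISRE match. Genes with a window called in M1 only across all 8 were Il1rl2, St6gal1, Etfa, Olfr90 and, at its internal starts, Egr2. Of the first 4, whose genes had no other window called in M2, 0 hold any of the 3 motifs. These genes were chosen after their values were seen, and a match is a description of the letters.

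Over the whole of the autosomes the states were balanced in length. In 1 kb bins, 16356 kb (5.04% of 324322 bins with any call) were M2-only and 17700 kb (5.46%) M1-only, beside 149230 kb called in all 4. The M2-only bins lay more in gene bodies, 48.0% against 31.9% for M1-only and 41.9% for any called bin. Runs of adjacent bins were short in both. The longest M2-only run was the 28 kb in Nos2 (chr11:78930001-78958000), followed by 11 kb in Rxra, a retinoid X receptor (chr2:27669001-27680000), and 11 kb over Aqp1 (chr6:55339001-55350000). The longest M1-only run was 19 kb in Pcsk1 (chr13:75092001-75111000), followed by a pair of 10 kb runs, the first 9.75 kb from App and the other on chromosome 18, nearest Iigp1. Runs of 5 kb or more numbered 199 in M2 and 304 in M1.

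The 15 longest runs of each kind differed in where they lay. Of the M2-only runs 9 overlapped a gene, and knockout M0 covered at least 50% of 13. Of the M1-only runs 4 overlapped a gene, and knockout M0 was at 0% in 14. Wild-type M1 covered at least 50% of 11 and 14 of these M1-only runs in its 2 libraries, and wild-type M2 covered 7 in each. Runs called in the same state in both genotypes included Adora2a, an adenosine receptor (5 kb), Socs3, Colec11, Serpina3f, Gbp7 and Ksr2 (3 kb each) for M2, and Il1rl2 (3 kb) and a 6 kb stretch far from any gene but nearest Helt for M1.

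The typical gene body held more tags in M2 than in M1 of the knockout. Of 7374 genes tested with limma, 1714 (23.2%) were higher in M2 and 188 (2.55%) lower at an adjusted p under 0.05, with a median log2 difference of 0.58. Centring on the median left 0 higher and 0 lower (smallest adjusted p = 0.0701; 1071 and 917 genes at an unadjusted p under 0.05). Leaving out either M1 library also left 0, and leaving out M2 replicate 1 or 2 left 282 and 275 higher and 2 and 0 lower. The genes that follow are those with the smallest p. After centring each kept its direction at an adjusted p of 0.0701.

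Celsr1, an atypical cadherin of planar cell polarity, had 319 and 389 tags in M1 and 1873 and 1883 in M2 (log2 difference 2.38 ± 0.14, limma, adjusted p = 0.0356). Ksr2, a scaffold of RAS-ERK signalling, had 183 and 185 against 889 and 971 (2.27 ± 0.13). Colec11, a collectin, had 19.6 and 19.1 against 198 and 217 (2.89 ± 0.21), and Morn1 had 0 in both M1 libraries against 164 and 119 (3.90 ± 0.27). Libraries far apart between the states and close within them are what a choice by smallest p selects. Mcf2l, Fam178b, Dagla, the enzyme that makes the endocannabinoid 2-arachidonoylglycerol, and Agap1 completed the higher group with Nos2 and Cd40, at 2.30 or less for these 4.

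Lower in M2 were Epyc, a cartilage proteoglycan, with 124 and 88.9 tags in M1 and 0 in both M2 libraries, and Kynu, the kynureninase of tryptophan breakdown, with 59.9 and 56.5 against 0. Kcnab1, a potassium channel subunit, had 600 and 611 against 213 and 198, a fall of 1.51 ± 0.13 (log2, limma, adjusted p = 0.0356). Ppp1r1c had 520 and 490 against 145 and 148, and Ranbp3l 200 and 201 against 43.9 and 41.6. Asic5, Nlrp4g and Ccdc192 were at 0 in both M2 libraries. Knockout M0 was also at 0 for Epyc, Kynu, Asic5, Nlrp4g and Ccdc192, and it was at 0 for Ranbp3l, whose M2 libraries held tags.

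**Figure D5:**
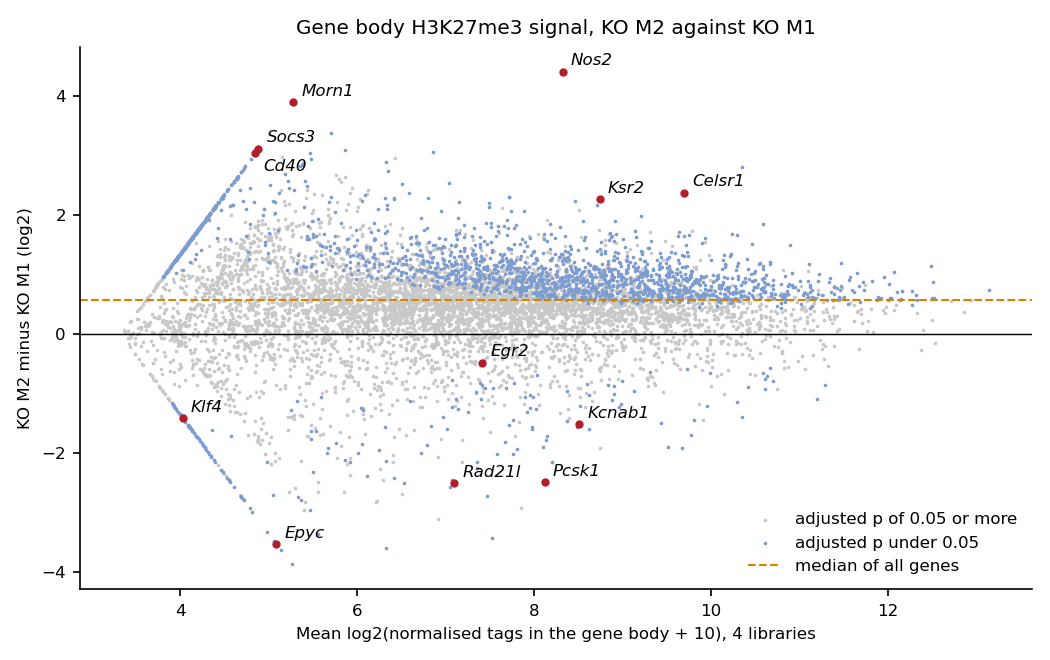
Each point is a gene body; the x axis is its mean log2 signal (tags plus 10, per 10 megatags) over the 4 knockout libraries and the y axis the log2 difference of M2 minus M1. The line at 0.58 is the median over 7374 genes; Nos2 at 4.41 and Epyc at -3.52 lie far from it.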

How the data were processed

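Region lists of 10 H3K27me3 ChIP-seq libraries were used, each with the deposited normalized tag count (a signal, scaled by the authors to 10 megatags per library, per the file headers), region length and findPeaks score. Per the file headers, regions were called per library with HOMER 4.8 findPeaks (size 1000, minimum distance 2500, false discovery rate 0.001, no input). The submitters' processing notes name Bowtie2 2.4.2, SAMtools 1.10, deepTools 3.5.1, DiffBind 2.0.2 and mm10. Tables of the authors' knockout against wild-type comparisons were not used here.

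Autosomes 1 to 19 were kept. Cover is the share of a gene body, a 300-base promoter window or a 1 kb bin under regions; a feature was called at 50%. Gene bodies came from RefSeq (GRCm38.p6; 20665 protein-coding genes), and 16457 genes matched a promoter window. Tags under regions were shared out by overlap; log2(tags + 10) was fitted with limma 3.58.1 (limma-trend, R 4.3.3) for genes with cover in at least 2 of the 4 libraries, with Benjamini-Hochberg adjustment over all 7374. Adjusted p-values in the text are from these fits. Single values used exact permutation tests (scipy 1.17.1; Python 3.11.15, numpy 2.4.6, pandas 2.3.3, matplotlib 3.10.9). The steps were tested on simulated data. Reads that fall outside called regions are not in the files, so a 0 means no called region.

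Named genes were every gene of 16 lists (483 of 496 genes matched) called in one state, the 12 largest gaps and the 10 smallest limma p in each direction (Gm, Rik and Olfr symbols left out), and Nos2, Socs3, Egr2, Arg1, Irf4, Pparg, Il6 and Il12b. Members and lists were chosen with earlier results of these data known. Other genes in the text are list members given for context, or were chosen after their values were seen. Alternatives were other region, cover and pseudocount limits, centring, a shared spread over 8 libraries, a replicate block, and each library left out.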

Additional observations from a re-analysis of the deposited data

How the results depend on the processing

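Of 92 alternative values for the 11 comparisons, 90 kept their direction, 59 lay within 1.5 times the main value or the replicate spread, and 31 moved. The covered length (-4.53 Mb, M2 minus M1) turned to 3.19 Mb without knockout M1 replicate 2 and 11.1 Mb without knockout M2 replicate 2 (range -20.2 to 11.1 with each library left out). With each library left out, M2-only genes numbered 274 to 550, M1-only genes 83 to 199, M2-only bins 23497 to 36628 and M1-only bins 21127 to 40118; a state with 1 library has a looser rule, so higher counts follow from its construction. M2-only and M1-only genes numbered 247 and 112 at 25% of the body, and 223 and 182 with the upper 50% of regions by score. In limma, 1714 higher and 188 lower genes became 0 and 0 after centring and with the upper 50% of regions, 32 and 6 with a spread shared over 8 libraries, and 0 to 282 and 0 to 2 with each library left out. The difference between genotypes called 0 to 77 genes larger and 0 to 1 smaller with each knockout library left out. The replicate numbers name no shared source; with them as a replicate block limma called 1733 higher and 211 lower, and 0 and 0 between genotypes (correlation of same-numbered deviations 0.160). Of 246 alternative values for 41 named genes, 57 moved and 6 turned: with the upper 50% of regions, Fam243 (-7.61 points), Cx3cl1 (-6.32), Ccr4 (-6.23) and S1pr3 (-34.2), and with 5 kb on either side, Ccr10 (18.3) and Ltb4r1 (17.7). The cause was not tested. With 2 libraries a group, no exact permutation p can go below 0.333.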
